A study of Rattus norvegicus with 9 samples.

Results

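The p53 target genes described here are Cdkn1a, Ccng1, Mdm2, Bax, Bbc3, Phlda3, Sesn1, Zmat3, Fas and Gdf15. These 10 genes were taken by symbol from 14607 genes listed in any of 9 RNA-seq libraries of cultured neonatal rat cardiomyocytes. All 10 were listed in each of the 9 libraries, and all 10 passed the filter on low counts that left 11761 genes for testing. The libraries fall into 3 groups of 3. The lenti-TCF7L2 cultures were infected with a lentivirus for TCF7L2 overexpression, the lenti-shTCF7L2 cultures with one carrying a short hairpin RNA against TCF7L2, and the lenti-NC cultures with the lentiviral vector control. Per the labels, all cells came from the hearts of wild-type SD rats 1 to 2 days old, were exposed to virus for 16 h and were cultured for 48 h more. Every group was therefore infected, and no uninfected culture was analysed here. The labels do not give the promoter that drives the insert, the species of the TCF7L2 sequence, the number of hairpins, or whether the 3 samples of a group came from separate cultures. The p-values below therefore measure the spread between these samples, which may be technical. The comparisons ask how raised or lowered TCF7L2, a DNA-binding partner of β-catenin in Wnt signalling, changes the cultures.

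The protein p53 is a transcription factor that is kept at a low level by the ubiquitin ligase MDM2. When DNA is damaged or cells are otherwise stressed, p53 is released from MDM2 and raises genes that stop the cell cycle, start cell death, limit growth signals, or restrain p53 itself. It binds a response element made of a pair of 10-base half-sites. Several of the 10 genes also answer to other regulators, and Gdf15 in the heart is best known as a secreted stress signal. The mRNA levels below do not measure p53 protein or its activity.

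The members did not move together. Levels are given as CPM, expected counts scaled to the library's size. With lenti-TCF7L2 against lenti-NC, Ccng1, Sesn1 and Mdm2 fell and Fas rose. That made 4 of 10 members called, beside 31.8% of all genes tested. By direction, 1 member was called higher, beside 18.0% of all genes, and 3 were called lower, beside 13.8%. With lenti-shTCF7L2 against lenti-NC, Gdf15 rose and Zmat3 fell, which made 2 of 10 members called, beside 3.64% of all genes. Each direction held 1 member, beside 1.32% of all genes called higher and 2.32% called lower. With lenti-TCF7L2 against lenti-shTCF7L2, Ccng1, Gdf15, Cdkn1a and Mdm2 fell, 4 of 10 beside 33.1% of all genes. Among all genes in that comparison 18.4% were higher and 14.7% were lower, and 0 members were higher by edgeR. DESeq2 called 0 members higher there and 4 lower, beside 3970 genes called in either direction. At an unadjusted p under 0.05, 2 members were higher (Zmat3 and Fas) and 5 were lower. The share of all genes at the unadjusted threshold was not counted, so the 2 and 5 have no background to be read against. A call is an adjusted p under 0.05 from edgeR's quasi-likelihood test, adjusted by Benjamini-Hochberg over all 11761 genes. In the fit of all 9 libraries the 3 groups share 1 estimate of spread per gene. The SE, interval and p-value of a comparison therefore also take in the spread of the group left out of it.

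**Figure D1:**
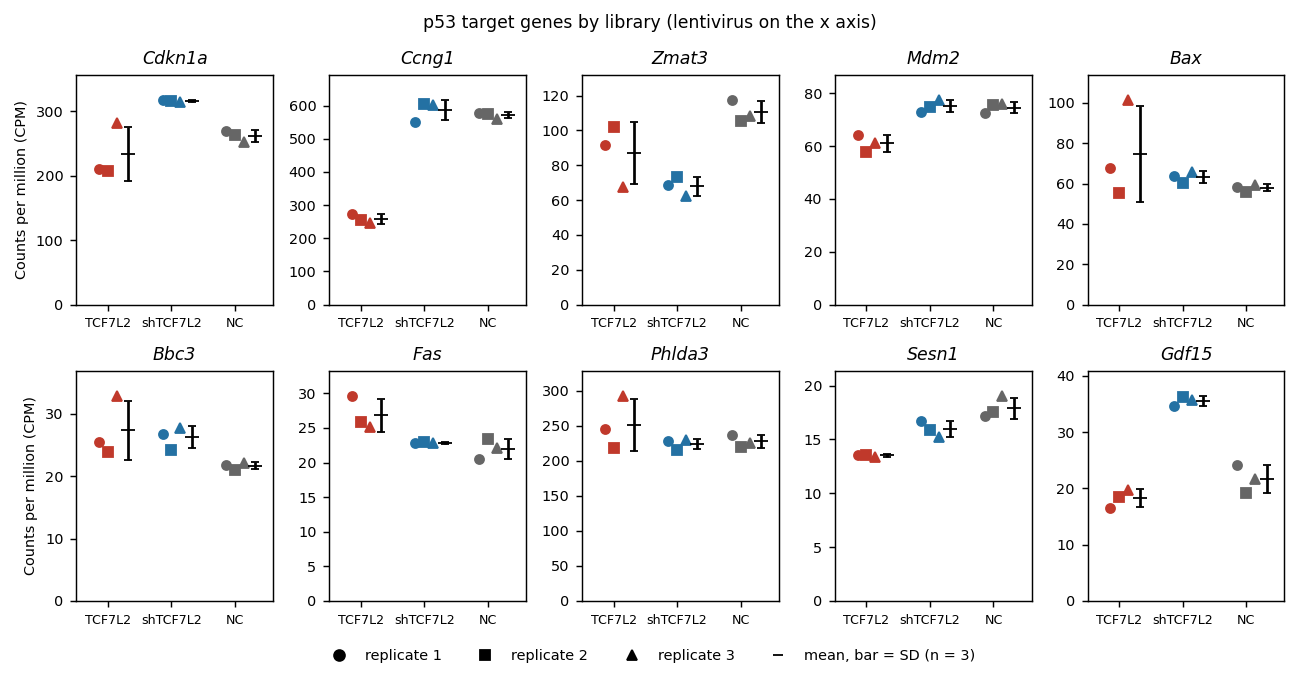
Counts scaled to library size (CPM) of the 10 p53 target genes in each of the 9 libraries, by virus, with the mean and SD of each group (n = 3) in black. Ccng1 lies between 246 and 274 CPM in the lenti-TCF7L2 libraries and between 551 and 604 CPM in the other 6 libraries, while Gdf15 lies between 34.6 and 36.2 CPM in the lenti-shTCF7L2 libraries, above the other 6.

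Library totals were alike, between 15085922 and 16478295 expected counts. Tcf7l2, the gene both viruses target, had 142, 206 and 85.7 CPM in the lenti-TCF7L2 libraries, 25.6, 30.3 and 25.9 CPM in the lenti-shTCF7L2 libraries, and 40.0, 36.4 and 34.1 CPM in the lenti-NC libraries. It rose with lenti-TCF7L2 (log2 difference 1.97, SE 0.27, adjusted p = 0.000846). With lenti-shTCF7L2 all 3 libraries lay below the controls, but the difference of -0.43 did not pass (SE 0.27, adjusted p = 0.511; over the 21 alternatives 0.000182 to 0.770). Replicate 3 of lenti-TCF7L2 stood apart: the lowest Pearson's r of log2 CPM was 0.948 within that group, against 0.994 within lenti-shTCF7L2 and within lenti-NC. In that library genes of up to 1000 bases had a median log2 difference of 0.49 from the lenti-NC mean, and genes over 8000 bases one of -0.98. Replicate 1 of lenti-TCF7L2 had 0.14 and -0.33 for these lengths, and replicate 2 had -0.07 and -0.01. Where leaving out replicate 3 changed a member's call, the value without it is given below.

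Markers of the labelled cell type were present, with all 8 cardiomyocyte markers listed in every library. Their summed level was 18382 to 21601 CPM with lenti-TCF7L2, 36795 to 37862 CPM with lenti-shTCF7L2, and 38982 to 40710 CPM with lenti-NC. Of the 8 markers 7 were lower with lenti-TCF7L2 than with lenti-NC, and with lenti-shTCF7L2 edgeR called 0 (0 also at an unadjusted p under 0.05 and by DESeq2). The 8 fibroblast markers summed to 37743 to 45371 CPM with lenti-TCF7L2, 37758 to 39468 CPM with lenti-shTCF7L2, and 33700.1 to 34886 CPM with lenti-NC. Against lenti-NC, 4 of them were higher and 1 lower with lenti-TCF7L2 (median log2 difference 0.38), and 0 were higher and 3 lower with lenti-shTCF7L2 (median -0.46), where the sum was higher. At an unadjusted p under 0.05, 1 was higher with lenti-shTCF7L2, and DESeq2 called 1 higher. The 10 endothelial markers summed to 277 to 372 CPM, 185 to 189 CPM, and 192 to 219.7 CPM for lenti-TCF7L2, lenti-shTCF7L2 and lenti-NC, with 8 higher with lenti-TCF7L2 than with lenti-NC. The 10 macrophage and leukocyte markers summed to 76.5 to 84.0 CPM with lenti-TCF7L2, 45.2 to 48.9 CPM with lenti-shTCF7L2, and 41.9 to 43.2 CPM with lenti-NC, where C1qb was not listed. Of the 8 that were tested, 5 were higher and 0 lower with lenti-TCF7L2 than with lenti-NC. With lenti-shTCF7L2 2 were higher and 0 lower, and the list median was -0.17. At an unadjusted p under 0.05, 1 was lower with lenti-shTCF7L2. Epicardial markers summed to 149 to 169.8 CPM with lenti-TCF7L2, 95.8 to 99.0 CPM with lenti-shTCF7L2, and 112 to 132 CPM with lenti-NC. Upk3b was not listed in any library. Of the 5 epicardial markers tested, 2 were higher and 1 lower with lenti-TCF7L2 than with lenti-NC, and 1 was lower with lenti-shTCF7L2. Over the 9 libraries smooth muscle and pericyte markers summed to 6784 to 7953 CPM, Schwann markers to 4.03 to 6.79 CPM, and erythroid markers to under 1 CPM. Of the 8 smooth muscle and pericyte markers, edgeR called 2 higher and 0 lower with lenti-TCF7L2 against lenti-NC. With lenti-shTCF7L2 it called 1 higher and 0 lower. DESeq2 called 2 higher and 1 lower with lenti-TCF7L2. In such bulk samples fewer cells of a type and less RNA per cell cannot be told apart. The part of these shifts in the differences of the 10 genes was not tested.

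Per length, the 10 genes spanned a wide range of levels. With lenti-TCF7L2 the order was led by Phlda3 at 169.8 ± 24.5 FPKM (fragments scaled to transcript length and library size, mean ± SD, n = 3), followed by Cdkn1a at 125 ± 22.3, Bax at 89.7 ± 28.5 and Ccng1 at 81.2 ± 4.76 FPKM, and each of these overlapped its neighbour in the order. Mdm2 (21.5 ± 1.12 FPKM) and Gdf15 (20.7 ± 1.79 FPKM) overlapped. Zmat3 (11.6 ± 2.37 FPKM) overlapped both Bbc3 above it (15.3 ± 2.61 FPKM) and Fas below it (10.6 ± 0.954 FPKM), while Bbc3 and Fas did not overlap. Sesn1 was lowest at 4.78 ± 0.0529 FPKM. With lenti-shTCF7L2 the order was Ccng1 at 182 ± 9.97, Cdkn1a at 167 ± 1.31, Phlda3 at 149 ± 4.23, Bax at 75.1 ± 2.94, Gdf15 at 39.9 ± 1.07, Mdm2 at 26.2 ± 0.786 and Bbc3 at 14.5 ± 0.912 FPKM. Zmat3 (8.94 ± 0.745 FPKM) and Fas (8.92 ± 0.0896 FPKM) overlapped there, and Sesn1 was lowest at 5.57 ± 0.255 FPKM. With lenti-NC Ccng1 stood at 174 ± 3.05, Phlda3 at 148 ± 5.84, Cdkn1a at 135 ± 4.89 and Bax at 67.2 ± 1.97 FPKM. Mdm2 (25.5 ± 0.628 FPKM) and Gdf15 (23.8 ± 2.78 FPKM) overlapped, followed by Zmat3 at 14.2 ± 0.806, Bbc3 at 11.7 ± 0.306, Fas at 8.41 ± 0.550 and Sesn1 at 6.12 ± 0.329 FPKM. Ccng1 was thus the highest of the 10 with lenti-shTCF7L2 and with lenti-NC, and Sesn1 was the lowest in each group.

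The first role is arrest of the cell cycle. Ccng1 (Entrez gene 25405) encodes cyclin G1, which brings a phosphatase to MDM2 and is one of the most regular targets of p53. It had 274, 254 and 246 CPM in the lenti-TCF7L2 libraries, 551, 604 and 603 CPM in the lenti-shTCF7L2 libraries, and 579, 575 and 561 CPM in the lenti-NC libraries. The lenti-TCF7L2 libraries lay below all 6 others without overlap, and the other groups overlapped. Ccng1 fell by 54.9% against lenti-NC in the lenti-TCF7L2 libraries, a log2 difference of -1.15 (SE 0.07, adjusted p = 2.75e-05) and the largest change among the 10. Against lenti-shTCF7L2 it fell by 1.18 on the log2 scale (SE 0.07, adjusted p = 1.79e-05). With lenti-shTCF7L2 against lenti-NC the difference was 0.04 (95% interval -0.12 to 0.19, adjusted p = 0.907). Expected counts of Ccng1 were whole numbers in 2 of the 9 libraries, so some of its reads were assigned in fractions and its level is uncertain to that extent.

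Cdkn1a (Entrez gene 114851) encodes p21, the inhibitor of cyclin-dependent kinases through which p53 halts the cycle. It had 210.5, 208 and 282 CPM in the lenti-TCF7L2 libraries, 317, 315 and 314 CPM in the lenti-shTCF7L2 libraries, and 269.9, 263 and 252 CPM in the lenti-NC libraries. Replicates 1 and 2 of lenti-TCF7L2 lay below every control and replicate 3 lay above every control, while the lenti-shTCF7L2 libraries were the highest 3 of the 9. With lenti-TCF7L2 the log2 difference from lenti-NC was -0.16 (SE 0.11, adjusted p = 0.289). Without replicate 3 it was -0.34 and was called (adjusted p = 0.000238). With an adjustment for gene length on all 9 libraries it was -0.25 and called too (adjusted p = 0.0445). Over the 21 alternatives its adjusted p ran from 8.82e-06 to 0.562. With lenti-shTCF7L2 the difference from lenti-NC was 0.27 (SE 0.11, adjusted p = 0.279). The lenti-shTCF7L2 difference was called in the fit of those 6 libraries alone (adjusted p = 3.03e-05). Dropping lenti-TCF7L2 replicate 3 from the fit made it a call too (adjusted p = 0.00301), within a range of 3.03e-05 to 0.580 over the alternatives. Between the TCF7L2 viruses Cdkn1a fell with lenti-TCF7L2 against lenti-shTCF7L2 (-0.43, SE 0.11, adjusted p = 0.0173). That call was lost in 5 of 21 alternatives, with a highest adjusted p of 0.0666. They were the fit of the 6 libraries alone and the fits without lenti-TCF7L2 replicate 1 (-0.37) or without any 1 of the lenti-shTCF7L2 libraries.

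Ccng1 and Cdkn1a were also the members whose promoter windows came closest to the p53 response element, and their sequences are shown for that reason. RefSeq windows of the GRCr8 build, from 250 bases before to 50 bases after a gene's start, were matched by symbol for 7 of the 10 genes in 8 windows. None was matched for Bax, Bbc3 or Zmat3. Each window was searched for the response element with no gap between its half-sites; the element reads the same on both strands. The best match held 1 mismatch of 20 bases in Cdkn1a and in Ccng1, 3 in Sesn1, 4 in Phlda3, 4 and 5 in the windows of Gdf15, and 5 in Mdm2 and in Fas. Of 33469 windows of the same length, 0.0717% held a match with at most 1 mismatch, 6.19% with at most 3, 29.7% with at most 4 and 76.2% with at most 5. The closest matches are given 5′ to 3′ on the gene's strand, with bases that match the element in capitals and mismatches in lower case.
Cdkn1a element, chr20:7150731-7150750, plus strand: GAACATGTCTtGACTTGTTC
Ccng1 element, chr10:25685099-25685118, minus strand: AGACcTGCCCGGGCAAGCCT
Sesn1 element, chr20:46948547-46948566, plus strand: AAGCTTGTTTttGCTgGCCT

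The Cdkn1a match runs from base -201 to base -182 before the start, and the Ccng1 match from base -242 to base -223. Both lie in the 250 bases upstream of the start, printed here whole so that the elements can be seen in place, again with the matching bases in capitals.
Cdkn1a upstream, chr20:7150682-7150931, plus strand: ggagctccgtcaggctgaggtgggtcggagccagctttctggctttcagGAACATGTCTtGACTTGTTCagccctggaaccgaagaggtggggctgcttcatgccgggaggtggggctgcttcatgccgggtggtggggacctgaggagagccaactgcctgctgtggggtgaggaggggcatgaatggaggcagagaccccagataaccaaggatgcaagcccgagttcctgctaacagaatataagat
Ccng1 upstream, chr10:25684877-25685126, minus strand: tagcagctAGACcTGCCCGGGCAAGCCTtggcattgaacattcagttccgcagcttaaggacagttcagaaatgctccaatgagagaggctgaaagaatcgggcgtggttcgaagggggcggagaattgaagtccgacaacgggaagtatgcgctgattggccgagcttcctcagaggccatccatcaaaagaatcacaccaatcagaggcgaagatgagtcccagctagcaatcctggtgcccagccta

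Ccng1 and Cdkn1a both fell with lenti-TCF7L2 against lenti-shTCF7L2, by 1.18 and 0.43 on the log2 scale, and the Cdkn1a call was lost in 5 of 21 alternatives. Mdm2, with 5 mismatches, and Gdf15, with 4 and 5, fell there too, by 0.30 and 0.96. Against lenti-NC Ccng1 fell by 1.15, and Cdkn1a was not called (-0.16, adjusted p = 0.289). Elements outside these windows, or with a gap between the half-sites, were not searched for. A poor best match in a window therefore does not mean that the gene lacks an element. A link between the element and these differences was not tested. The windows were also searched on both strands for 4 spellings of the core bound by TCF and LEF factors, namely CTTTG followed by AA, AT, TA or TT. Mdm2 held 1 such core, starting at base 3 of the transcript, and Fas held 2, starting at bases -149 and -104. The first of these in Fas overlaps 1 of its 3 tied closest matches to the p53 element. The other 5 genes with a window, Ccng1 and Cdkn1a among them, held none of these spellings in this window, and 17.1% of all windows held at least 1. A match of letters is a description of the sequence and was not tested for binding.

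Zmat3 (Entrez gene 64394) encodes a zinc finger protein that binds RNA and takes part in p53's effects on growth and splicing. It had 91.8, 102 and 67.6 CPM in the lenti-TCF7L2 libraries, 68.4, 73.1 and 62.4 CPM in the lenti-shTCF7L2 libraries, and 117, 106 and 108 CPM in the lenti-NC libraries. All 6 libraries with a TCF7L2 virus lay below the 3 controls, and those 6 overlapped each other through lenti-TCF7L2 replicate 3. With lenti-shTCF7L2 Zmat3 fell by 38.5% against lenti-NC, a log2 difference of -0.70 (SE 0.14, adjusted p = 0.0278). That call was lost in 7 of 21 alternatives, at adjusted p = 0.0604 on log2(FPKM + 1) with no filter and 0.0864 to 0.137 when any lenti-shTCF7L2 or lenti-NC library was left out, while the difference stayed between -0.76 and -0.62. With lenti-TCF7L2 the difference from lenti-NC was -0.34 (SE 0.14, adjusted p = 0.0875). It was called in 2 of 21 alternatives only, without replicate 2 (-0.48, adjusted p = 0.0170) and without replicate 3 (-0.21, adjusted p = 0.0406). Over the alternatives it ran from -0.48 to -0.01, with adjusted p up to 0.897. Between the TCF7L2 viruses the difference was 0.36 (SE 0.14, adjusted p = 0.0799), and it was called in 4 of 21 alternatives. Without lenti-TCF7L2 replicate 3 it was 0.51 and called (adjusted p = 0.000116, range over alternatives 1.15e-06 to 0.226). With an adjustment for gene length on all 9 libraries it was 0.66 and called (adjusted p = 9.60e-05). Expected counts of Zmat3 were whole in 0 of the 9 libraries, so the same limit holds for it.

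The second role is feedback on p53. Mdm2 (Entrez gene 314856) encodes the ligase that marks p53 for breakdown, and its transcription is raised by p53. It had 64.1, 57.6 and 61.2 CPM in the lenti-TCF7L2 libraries, 72.8, 74.9 and 77.4 CPM in the lenti-shTCF7L2 libraries, and 72.4, 75.4 and 75.9 CPM in the lenti-NC libraries. The lenti-TCF7L2 libraries were the lowest 3 of the 9, with no overlap. Mdm2 fell by 0.29 on the log2 scale against lenti-NC (SE 0.07, adjusted p = 0.0114) and by 0.30 against lenti-shTCF7L2 (SE 0.07, adjusted p = 0.00907). The lenti-shTCF7L2 and lenti-NC libraries overlapped (0.01, 95% interval -0.14 to 0.16, adjusted p = 0.982).

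The third role is cell death and survival. Fas (Entrez gene 246097), the death receptor at the cell surface, had 29.6, 25.9 and 25.1 CPM in the lenti-TCF7L2 libraries, 22.8, 22.9 and 22.8 CPM in the lenti-shTCF7L2 libraries, and 20.5, 23.4 and 22.1 CPM in the lenti-NC libraries. The lenti-TCF7L2 libraries were the highest 3. Fas rose with lenti-TCF7L2 against lenti-NC (0.29, SE 0.09, adjusted p = 0.0449). This call was lost in 13 of 21 alternatives, among them DESeq2 (adjusted p = 0.0724), the fit with a replicate block (0.0799) and each fit that left out a library other than lenti-TCF7L2 replicates 2 and 3. The adjusted p of Fas ran from 0.00971 to 0.162 and the difference from 0.20 to 0.34. Against lenti-shTCF7L2 the difference was 0.23 (SE 0.09, adjusted p = 0.0859), and without lenti-TCF7L2 replicate 3 it was 0.28 and called (adjusted p = 0.0217). With lenti-shTCF7L2 against lenti-NC the difference was 0.05 (95% interval -0.16 to 0.27).

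Bax (Entrez gene 24887) encodes a pore-forming protein of the mitochondrial outer membrane that releases cytochrome c. It had 67.6, 55.1 and 101 CPM in the lenti-TCF7L2 libraries, 63.7, 60.3 and 65.8 CPM in the lenti-shTCF7L2 libraries, and 58.3, 56.0 and 59.2 CPM in the lenti-NC libraries. Replicate 3 of lenti-TCF7L2 was the highest of the 9 and replicate 2 the lowest, so that group spanned all others, and the lenti-shTCF7L2 libraries lay above the controls. None of its comparisons passed. Against lenti-NC the lenti-TCF7L2 libraries differed by 0.37 (95% interval -0.05 to 0.79, adjusted p = 0.160), and the lenti-shTCF7L2 libraries by 0.13 (95% interval -0.29 to 0.55, adjusted p = 0.856). With lenti-TCF7L2 it was 0.07 without replicate 3 and 0.54, and called, without replicate 2 (adjusted p = 0.0176, highest over the alternatives 0.557).

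Bbc3 (Entrez gene 317673) encodes PUMA, a protein of the inner death pathway that frees BAX from its inhibitors. It had 25.5, 23.9 and 32.8 CPM in the lenti-TCF7L2 libraries, 26.9, 24.3 and 27.7 CPM in the lenti-shTCF7L2 libraries, and 21.8, 21.1 and 22.2 CPM in the lenti-NC libraries. All 6 libraries with a TCF7L2 virus lay above the 3 controls. Neither difference from the controls passed, at 0.34 for lenti-TCF7L2 (SE 0.13, adjusted p = 0.0684) and 0.28 for lenti-shTCF7L2 (SE 0.13, adjusted p = 0.327). For lenti-TCF7L2 it was called in 3 of 21 alternatives, and without replicate 3 it was 0.17 (adjusted p = 0.139, range 0.0224 to 0.212). For lenti-shTCF7L2 it was called when the 6 libraries were fitted alone (adjusted p = 0.00750) and without lenti-TCF7L2 replicate 3 (adjusted p = 0.0365), with a highest adjusted p of 0.667.

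Phlda3 (Entrez gene 363989) encodes a small protein that keeps the survival kinase AKT from the membrane. It had 245, 218 and 291 CPM in the lenti-TCF7L2 libraries, 227, 215 and 229 CPM in the lenti-shTCF7L2 libraries, and 237, 219.6 and 226 CPM in the lenti-NC libraries. The groups overlapped in every comparison. Against the controls Phlda3 differed by 0.15 for lenti-TCF7L2 (95% interval -0.08 to 0.37, adjusted p = 0.293). For lenti-shTCF7L2 it differed by -0.02 (95% interval -0.25 to 0.21, adjusted p = 0.967). Without lenti-TCF7L2 replicate 3 the lenti-TCF7L2 difference was 0.01.

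The fourth role is control of growth and secreted signals. Sesn1 (Entrez gene 294518) encodes sestrin 1, which restrains the growth kinase complex mTORC1. It had 13.5, 13.6 and 13.4 CPM in the lenti-TCF7L2 libraries, 16.7, 15.9 and 15.3 CPM in the lenti-shTCF7L2 libraries, and 17.2, 17.5 and 18.99 CPM in the lenti-NC libraries. The groups followed each other without overlap, lenti-TCF7L2 lowest and lenti-NC highest. On the log2 scale Sesn1 fell by 0.40 in the lenti-TCF7L2 libraries against lenti-NC (SE 0.09, adjusted p = 0.00762). With lenti-shTCF7L2 the difference of -0.16 did not pass (SE 0.09, adjusted p = 0.411), nor did the -0.24 between the TCF7L2 viruses (SE 0.09, adjusted p = 0.0617).

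Gdf15 (Entrez gene 29455) encodes a hormone of the TGF-β family that stressed cells release, and it answers to ATF4 as well as to p53. It had 16.5, 18.6 and 19.7 CPM in the lenti-TCF7L2 libraries, 34.6, 36.2 and 35.8 CPM in the lenti-shTCF7L2 libraries, and 24.2, 19.1 and 21.6 CPM in the lenti-NC libraries. The lenti-shTCF7L2 libraries were the highest 3 of the 9 by a clear gap, and the lenti-TCF7L2 and lenti-NC libraries overlapped. Gdf15 rose with lenti-shTCF7L2 against lenti-NC (0.72, SE 0.11, adjusted p = 0.00975), a level 64.2% higher. That call was lost in 4 of 21 alternatives, without lenti-shTCF7L2 replicate 2 or 3 or lenti-NC replicate 2 or 3, at adjusted p of 0.0542 to 0.0608, and the difference stayed between 0.63 and 0.80. Between the TCF7L2 viruses, Gdf15 fell by 0.96 on the log2 scale in the lenti-TCF7L2 libraries (SE 0.11, adjusted p = 0.000243). Their difference from lenti-NC, -0.25, did not pass (SE 0.11, adjusted p = 0.114). That difference was -0.32 and called without replicate 3 (adjusted p = 0.0229, which is also the lowest over the alternatives, the highest being 0.339). With an adjustment for gene length on all 9 libraries it was -0.40 and called too (adjusted p = 0.0307).

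**Figure D2:**
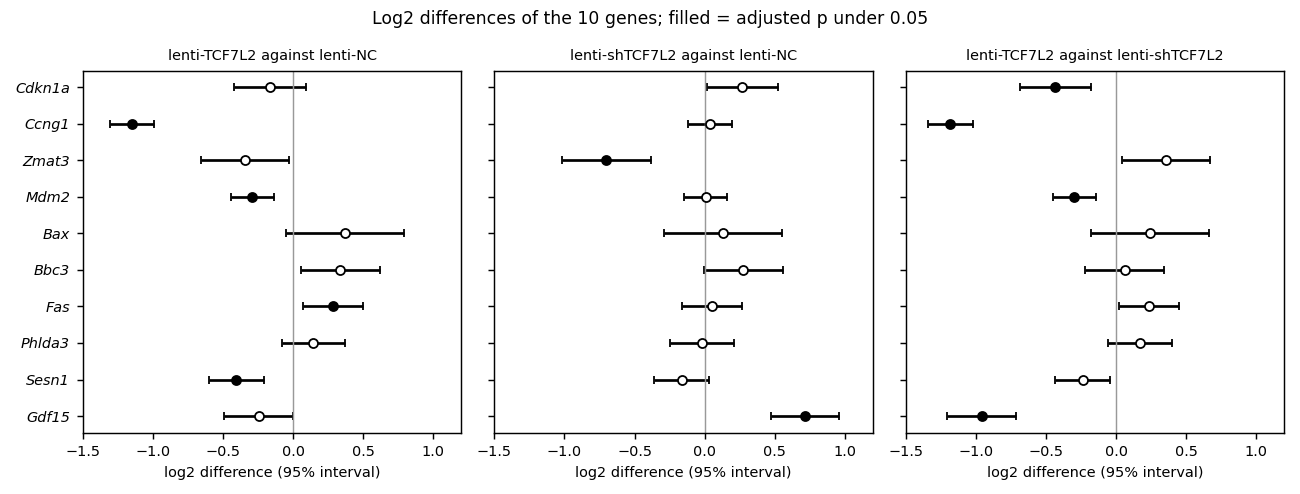
Log2 differences of the 10 p53 target genes in the 3 comparisons, with 95% intervals from the edgeR fit of 9 libraries (n = 3 per group), filled where the adjusted p is under 0.05. Ccng1 (-1.15) is the farthest from 0 with lenti-TCF7L2 against lenti-NC, and Gdf15 (0.72) and Zmat3 (-0.70) are the filled points with lenti-shTCF7L2 against lenti-NC.

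Set side by side, the 3 comparisons share samples, so their values are not independent. The groups did not overlap in CPM for 6 members with lenti-TCF7L2 against lenti-NC (Ccng1, Mdm2, Bbc3, Sesn1, Zmat3 and Fas), beside 46.8% of all genes tested. They did not overlap for 6 members with lenti-shTCF7L2 against lenti-NC (Cdkn1a, Bax, Bbc3, Sesn1, Zmat3 and Gdf15), beside 40.9% of all genes. Between the TCF7L2 viruses 6 members did not overlap (Cdkn1a, Ccng1, Mdm2, Sesn1, Fas and Gdf15), beside 47.2% of all genes. The median log2 difference over the 10 genes was -0.20 with lenti-TCF7L2 and 0.04 with lenti-shTCF7L2, each against lenti-NC, where all genes tested had medians of 0.03 and 0.01.

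Without lenti-TCF7L2 replicate 3, 7 of the 10 members were called with lenti-TCF7L2 against lenti-NC, beside 42.7% of 11820 genes. Of these 6 were lower (Ccng1, Cdkn1a, Gdf15, Mdm2, Sesn1 and Zmat3, beside 21.5% of genes) and Fas was higher (beside 21.2%). Without replicate 2 instead, 7 were also called, beside 46.5% of 11828 genes, and these were Bax, Bbc3 and Fas higher and Ccng1, Mdm2, Sesn1 and Zmat3 lower. Ccng1, Mdm2, Sesn1 and Fas were thus called by the fit of all 9 libraries and by both of these. Of these 4, Fas lost its call in 13 of 21 alternatives, among them the fit without lenti-TCF7L2 replicate 1 (adjusted p = 0.162). With lenti-shTCF7L2 against lenti-NC, 4 members were called without lenti-TCF7L2 replicate 3 (Bbc3, Cdkn1a and Gdf15 higher, Zmat3 lower), beside 17.4% of genes. The same 4 were called when the 6 libraries were fitted alone, beside 28.5% of 11553 genes. Between the TCF7L2 viruses, 6 members were called without lenti-TCF7L2 replicate 3, beside 45.6% of genes. Ccng1, Cdkn1a, Gdf15 and Mdm2 were lower there (beside 22.3%), and Fas and Zmat3 were higher (beside 23.3%).

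The members' own lengths varied from 865 bases in Bax to 7513 bases in Zmat3, and replicate 3 of lenti-TCF7L2 departed from its group by length. In that library Bax lay 0.73 above the mean of replicates 1 and 2 on the log2 CPM scale, Cdkn1a 0.43, Bbc3 0.41 and Phlda3 0.33. Genes within 1.25-fold of the same lengths had medians of 0.46, 0.13, 0.16 and 0.25 for these 4. Gdf15, with 912 bases, lay 0.17 above, where genes of like length had a median of 0.43. Zmat3 lay at -0.51, where genes of like length had -0.64. The 4 members of 2554 to 3198 bases, Fas, Sesn1, Mdm2 and Ccng1, stayed between -0.14 and 0.01, and these are the 4 called with lenti-TCF7L2 against lenti-NC.

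**Figure D3:**
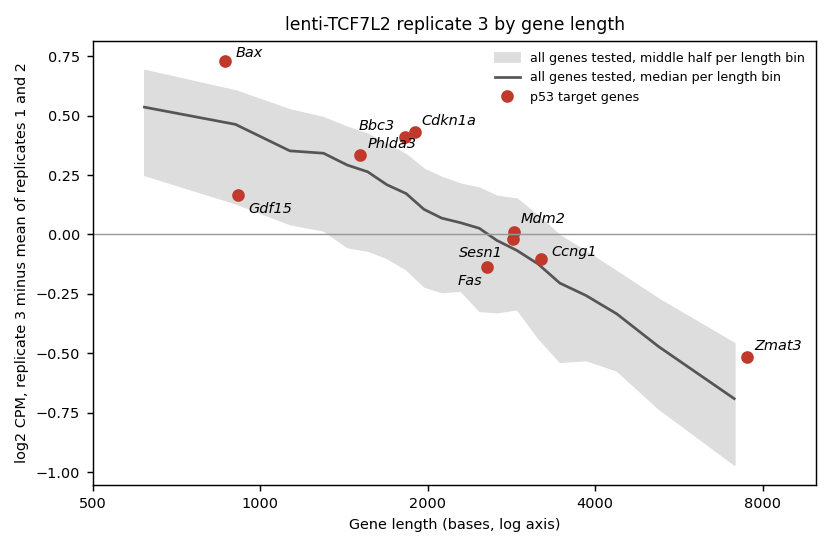
Difference in log2 CPM between lenti-TCF7L2 replicate 3 and the mean of replicates 1 and 2, against gene length in bases on a log axis, for the 10 p53 target genes (red points) and all 11761 genes tested (line, median per length bin, and grey band, lower to upper quartile). The band falls with length, and Bax (0.73) and Zmat3 (-0.51) are the members at its ends.

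Other genes of the p53 pathway were mixed with lenti-TCF7L2 against lenti-NC. Among all genes in that comparison 18.0% were called higher and 13.8% lower, and without replicate 3 these shares were 21.2% and 21.5%. Among regulators of p53, Chek2, a kinase that activates it, rose by 0.37 on the log2 scale (adjusted p = 0.0419), and Mdm4, the partner of MDM2 that also holds p53 back, fell by 0.72 (adjusted p = 0.0354). Mdm4 had 16.6, 20.3 and 9.62 CPM in the lenti-TCF7L2 libraries and between 24.7 and 26.5 CPM in the lenti-NC libraries, and without replicate 3 its difference was -0.48 (adjusted p = 0.00116). Of 14 other targets in cell cycle and repair, Plk3 rose (0.62) and Plk2 (-0.34) and the damage-response gene Gadd45a (-0.40) fell, and without replicate 3 there were 2 higher and 3 lower. Of 12 other targets in cell death, the membrane protein gene Perp fell to 42.5, 43.1 and 42.5 CPM in the lenti-TCF7L2 libraries, against 82.0, 86.4 and 85.4 CPM in the lenti-NC libraries (-0.99, SE 0.06, adjusted p = 2.82e-05). In that list Shisa5 (0.63) and the caspase Casp6 (0.45) rose, and the Casp6 call was lost without replicate 3 (0.28, adjusted p = 0.0706). Without it the list had 1 gene higher and 3 lower. Of 18 targets in metabolism and autophagy, 5 were higher and 4 lower (median -0.23), and without replicate 3 there were 5 and 7 (median -0.11). The mTORC1 inhibitor Ddit4 rose (0.51), while the epoxide hydrolase Ephx1 (-0.83) and the pantothenate kinase Pank1 (-0.84) fell.

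Lists around single members gave the following counts for lenti-TCF7L2 against lenti-NC. Beside them stand the same shares over all genes, 18.0% higher and 13.8% lower (21.2% and 21.5% without replicate 3). Among 16 CDK inhibitors and cyclins, which work beside p21, 2 were higher and 2 lower (2 and 4 without replicate 3), with Ccnd3 at 0.31, Ccnd1 at -0.41 and Rb1 at -0.49. Of 23 cell cycle genes that p21 lowers through the DREAM complex, 4 were higher and 1 lower (7 and 2 without replicate 3), with the helicase subunit Mcm5 (0.39) and the mitotic kinase Cdk1 (0.41) higher and the phosphatase Cdc25a (-0.27) lower. Of 18 genes of the BCL2 family and mitochondrial death, around Bax and Bbc3, 2 were higher and 2 lower (2 and 6 without replicate 3). The pore-former Bak1 rose (0.29), and cytochrome c, Cycs (-0.83), and the death inhibitor Bcl2l2 (-0.35) fell. In the FAS death receptor arm 4 of 7 tested genes rose and 0 were lower, with the receptor Tnfrsf1a (0.42), the adaptor Tradd (0.71) and Daxx (0.54) among them (median 0.42). Without replicate 3 these counts were also 4 and 0, and the median was 0.35. At an unadjusted p under 0.05 this arm had 1 lower gene, and DESeq2 called 3 higher and 0 lower. Of 8 ATF4 stress genes, which share a regulator with Gdf15, 5 rose and 0 were lower (median 0.48), with Cebpb (1.61), Asns (0.60) and Atf3 (0.57) first by p, while Gdf15 itself was not called. None of the 8 was lower at an unadjusted p under 0.05 (0 genes) or by DESeq2 (0 genes). Of 4 tested paralogs of the members, Phlda1 fell (-0.57).

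With lenti-shTCF7L2 against lenti-NC few genes of these lists were called in the fit of all 9 libraries. Among all genes 1.32% were called higher there and 2.32% lower, and without lenti-TCF7L2 replicate 3 these shares were 6.51% and 10.9%. Of the 8 ATF4 stress genes, 3 rose and 0 were lower (median 0.36), and without lenti-TCF7L2 replicate 3 there were 7 higher. The count of lower genes was 0 as well at an unadjusted p under 0.05 and by DESeq2. The amino acid enzyme Asns had 127, 136 and 119.7 CPM in the lenti-shTCF7L2 libraries against 71.8, 55.3 and 71.7 CPM in the lenti-NC libraries (0.94, SE 0.11, adjusted p = 0.00313). The glutathione-degrading enzyme Chac1 (1.09) and the pseudokinase Trib3 (1.10) rose as well, beside the rise of Gdf15. Bid, a BH3 protein that activates BAX, rose (0.52, adjusted p = 0.0443), as did Bak1 (0.32, adjusted p = 0.0432), and Bcl2l2 fell (-0.71, adjusted p = 0.00283). Dram1, a p53 target in autophagy, fell with lenti-shTCF7L2 (-0.58, adjusted p = 0.0231) and rose with lenti-TCF7L2 (0.62, adjusted p = 0.00305), both against the same controls. E2f1 fell (-0.59, adjusted p = 0.0364), the 1 call among the 23 genes lowered through DREAM in the fit of all 9 libraries. Without lenti-TCF7L2 replicate 3, that list had 4 genes higher and 4 lower, and DESeq2 on all libraries called 1 higher and 2 lower. Metabolism and autophagy moved to 2 higher and 3 lower without that replicate, and the BCL2 family to 2 and 3. Phlda1 fell (-0.29). Among the other targets in cell cycle and repair, the CDK inhibitors and cyclins, and the FAS arm, edgeR called 0 genes in the fit of all 9 libraries. Without lenti-TCF7L2 replicate 3 it called 1 higher and 1 lower in cell cycle and repair, 1 lower among the CDK inhibitors and cyclins, and 0 in the FAS arm. DESeq2 also called 0 in these 3 lists, and at an unadjusted p under 0.05 there was 1 higher gene in cell cycle and repair and 1 lower among the CDK inhibitors and cyclins. The most abundant tested genes of those lists were Plk2 (0.04), Ccnd1 (-0.14) and Tnfrsf1a (-0.09).

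**Figure D4:**
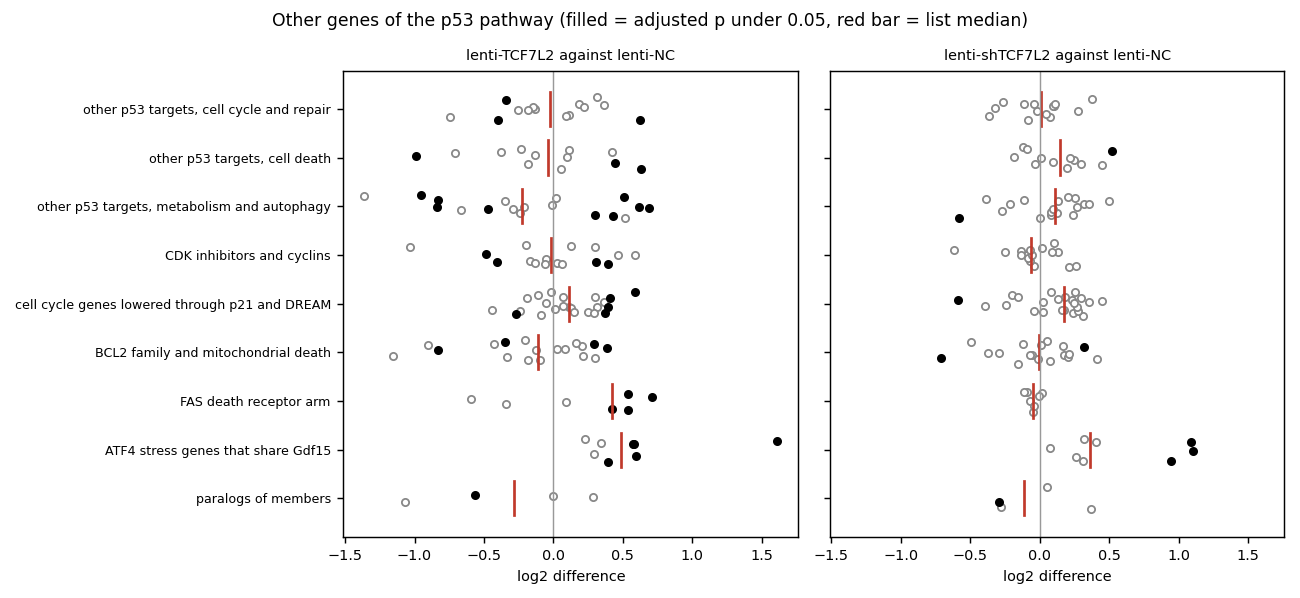
Log2 differences of the tested genes of 9 pathway lists with lenti-TCF7L2 (left) and lenti-shTCF7L2 (right), each against lenti-NC; filled points have an adjusted p under 0.05 and red bars are list medians. The ATF4 stress genes lie to the right in both panels (medians 0.48 and 0.36), while the FAS arm has medians of 0.42 in the left panel and -0.05 in the right one.

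The genes whose levels followed each member called against lenti-NC most closely over the 9 libraries were picked by Pearson's r of log2 CPM among 10220 genes with a mean count of at least 50. The 9 libraries form 3 groups and are shared by all these genes, so r is a description. For Ccng1 these were Wls (r = 0.997), Dnaja4 (0.997) and Ccdc47 (0.994). Wls, which carries Wnt proteins out of the cell, had 355, 333 and 333 CPM in the lenti-TCF7L2 libraries, 509, 526 and 545 CPM in the lenti-shTCF7L2 libraries, and 512, 501 and 505 CPM in the lenti-NC libraries. For Mdm2 they were Cpox (0.990), Ctps1 (0.987) and Nxnl2 (0.984), and for Sesn1 they were Urgcp, Synj2bp and Dlst (0.965 each). For Zmat3 they were Slc25a16 (0.981), Ube3b (0.975) and Tbl1x (0.960), for Fas Stom (0.957), Tmem63a (0.949) and Slc39a3 (0.939), and for Gdf15 Mcam (0.979), Srpk3 (0.971) and Lars (0.965).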

How the data were processed

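RNA-seq libraries of 9 samples (3 per virus) were used. Per the labels' protocols, RNA was taken with Trizol, mRNA was selected with oligo(dT), and libraries were made with NEBNext Ultra kits and sequenced on a BGISEQ-500. The authors deposited, per the file headers, an expected count and an FPKM value (fragments scaled to transcript length and library size) for each gene of each library. The submitters' processing notes name HISAT2, Bowtie2, RSEM 1.3.1, DESeq2 1.4.5 and the rn6 build, without their roles. An expected count can be a fraction where a read matches several sequences, and FPKM divides by transcript length.

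From 84.2% to 84.5% of expected counts per library were whole numbers, and all were rounded. Genes were filtered with filterByExpr and scaled by TMM, and all 9 libraries were fitted in 1 edgeR 4.0.16 quasi-likelihood model with group as its term (R 4.3.3), adjusted by Benjamini-Hochberg over 11761 genes. A further 2846 genes were set aside. CPM is the count over the TMM-scaled library size, except that sums of cell type markers are over the unscaled total. Totals of 15085922 to 16478295 make 3 counts equal 0.182 to 0.199 CPM of the unscaled total, the limit that a count of 0 allows, for counting error only. The biological coefficient of variation was 14.94%. The fit was tested on simulated counts before use. Python 3.11.15 with pandas 2.3.3, numpy 2.4.6 and matplotlib 3.10.9 was used for tables and figures. Promoter windows are from RefSeq (GRCr8), a different build from the files'.

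Named genes are the 10 members and Tcf7l2, up to 3 called genes of smallest adjusted p in each pathway list and comparison with lenti-NC (the most abundant gene where none was called), and the 3 genes most correlated with each called member. The members and lists were chosen with earlier results of these data known. Some genes of the lists are not reported here. Alternatives were RLE and upper-quartile scaling, other count filters, DESeq2 1.42.0, limma 3.58.1 on log2(FPKM + 1) or log2(FPKM + 0.1), a replicate block, fits of 6 libraries, a length adjustment, and leaving out each library.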

Additional observations from a re-analysis of the deposited data

How the results depend on the processing

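The falls of Ccng1 (-1.21 to -1.09), Mdm2 (-0.34 to -0.23) and Sesn1 (-0.44 to -0.30) with lenti-TCF7L2 against lenti-NC stayed past the threshold in all 21 alternatives, as did those of Ccng1, Mdm2 and Gdf15 against lenti-shTCF7L2. The rises of Fas with lenti-TCF7L2 and of Gdf15 with lenti-shTCF7L2, the fall of Zmat3 with lenti-shTCF7L2 and that of Cdkn1a between the TCF7L2 viruses kept their direction in all 21 alternatives and lost the call in 13, 4, 7 and 5 of them. No called member changed sign.

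Counts of called genes moved more. With lenti-shTCF7L2 against lenti-NC edgeR called 428 genes, and there were 651 by DESeq2, 3294 with 6 libraries only, 967 with the length adjustment, 2595 with that adjustment and without lenti-TCF7L2 replicate 3, and 88 to 2056 when each library was left out in turn. With lenti-TCF7L2 against lenti-NC there were 3741, with 2321 from 6 libraries only and 2430 to 5503 leaving out each library. Between the TCF7L2 viruses there were 3890, with 5976 under the length adjustment without lenti-TCF7L2 replicate 3 and 2649 to 5405 leaving out each library. Members called with lenti-TCF7L2 against lenti-NC numbered 4, and 3 to 7 leaving out each library. Under the length adjustment with all libraries they numbered 6 (1 higher and 5 lower), where 4591 genes were called. With lenti-shTCF7L2 against lenti-NC they numbered 2, with 1 on log2(FPKM + 1) with no filter, 4 from 6 libraries only, 4 under the length adjustment without lenti-TCF7L2 replicate 3, and 0 to 4 leaving out each library. Between the TCF7L2 viruses they numbered 4, with 7 under the length adjustment without that replicate and 3 to 6 leaving out each library. With all libraries the length adjustment gave 6 there (1 higher and 5 lower), where 4854 genes were called. The cause of these moves was not tested. Fits without libraries hold fewer samples, and their spread per gene is estimated from the libraries that remain.

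With the replicate number as a block the counts of called genes were 3460 with lenti-TCF7L2 and 244 with lenti-shTCF7L2 against lenti-NC, and 3649 between the TCF7L2 viruses, and those of members were 3, 2 and 4. Same-numbered libraries deviated together with r over 0.1 in 2 of 9 pairs (-0.07 to 0.15), so the number was not taken as a pairing. Sesn1, the least abundant member per length, had 214 to 284 counts per library.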
